A study of Bos taurus with 6 samples.

Results

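The windows described here flank stretches of the cattle genome in which sequenced CpG cytosines lie close together. On a grid of 1000 bp along autosomes 1 to 29 (build UMD3.1), the density of a window was the number of distinct cytosines covered in any library, with the strands counted apart. Windows of density 60 or more were called dense. A window of lower density was a flanking window if its nearest dense window lay 1 or 2 windows away and if it was measured in at least 2 libraries of each group, a library counting as measured with 3 or more covered cytosines and 10 or more read calls there. Windows with 1000 or more calls in all 6 libraries were dropped. The rule left 6205 flanking windows, 4298 at distance 1 and 1907 at distance 2, among 409025 autosomal windows with a covered cytosine and 58509 that met the same minimum. Methylation took no part in the choice. The other windows that met the minimum were 8256 dense windows and 44048 far windows, which lie 3 or more windows from any dense one.

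The DNA came from blood of 6 adult males of 5 breeds, with 1 library for each animal. Creole 1 was of the Sanmartinero breed, and Creole 2 and 3 were Costeno con Cuernos. Among the Spanish animals, Spanish 1 was a Retinta, Spanish 2 an Asturiana de los Valles and Spanish 3 of the Lidia breed. No age was given, and whole blood mixes many cell types whose shares were not measured. All libraries were made by reduced representation bisulfite sequencing, in which MspI cuts DNA at CCGG and fragments of 175 to 225 bp are bisulfite converted, so that unmethylated cytosines are read as thymine. Extraction kit and lane mark changed with the group, so their part in a Creole to Spanish difference cannot be told apart from the group's. The study asked how blood methylation differs between Creole cattle of the tropics and the Iberian breeds they descend from.

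In mammalian genomes most CpG sites are methylated by DNA methyltransferases, while clusters of CpG sites known as CpG islands, many of them at promoters, are mostly kept free of the mark. The sequence on either side of an island, called its shore, is where the low level of the island gives way to the high level of the rest of the genome, and shores are known as places where methylation varies between tissues. The label shore was checked here against the islands that the authors' deposited table gives beside its regions. Of 102 such islands of up to 10000 bp (median length 1273 bp), 42 windows at distance 1, 7 at distance 2, 83 dense windows and 30 far windows held part of one, and in those at distance 1 the island took up 622 bp of the window on average. Some windows chosen by the rule thus lie within an annotated island, and they are called flanking windows.

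Depth set which of them could be compared. The libraries held 38633007 to 80245850 autosomal calls. Creole 1, the deepest, covered 3391903 autosomal cytosines and the other 5 libraries 669467 to 1632409. A measured window at distance 1 held a median of 25 covered cytosines and 363 calls in Creole 1, and 10 to 14 cytosines and 132 to 333 calls in the others. At distance 2 the medians were 24 cytosines and 331 calls in Creole 1, and 9 to 13 cytosines and 136 to 300.5 calls in the others. Of 13173 candidate windows at distance 1, 8740 missed the minimum and 135 were dropped as very deep. At distance 2 these numbers were 5350 and 80 of 7337. All 6 libraries measured 1204 windows at distance 1 and 576 at distance 2. Median density was 35 at distance 1 and 33 at distance 2, against 75 in dense and 21 in far windows. Each chromosome held between 71 flanking windows, on chromosomes 27 and 28, and 433, on chromosome 25.

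Mean methylation was higher in windows farther from dense windows. Averaged over measured windows, each weighted equally, the mean level was 30.7 to 35.0% in dense windows, 43.6 to 46.7% at distance 1, 60.3 to 62.0% at distance 2 and 62.6 to 64.5% in far windows, as the lowest and highest of the 6 libraries. These ranges do not overlap between dense windows, distance 1 and distance 2. They compare different places, however. Where both distances were measured beside the same dense window, the farther window was higher by only 1.90 points on average. At distance 1 the level was 46.7%, 45.7% and 46.1% in Creole 1, 2 and 3, and 45.2%, 44.6% and 43.6% in Spanish 1, 2 and 3. Single windows spread over the whole range. At distance 1, 33.4 to 41.7% of windows read under 20%, 32.8 to 44.4% read 20 to 80%, and 22.2 to 27.1% read over 80%. At distance 2, only 14.4 to 21.1% read under 20%, and 31.1 to 39.2% read over 80%. Creole 1, with the most cytosines per window, had the largest share of windows between 20 and 80% at both distances.

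**Figure D1:**
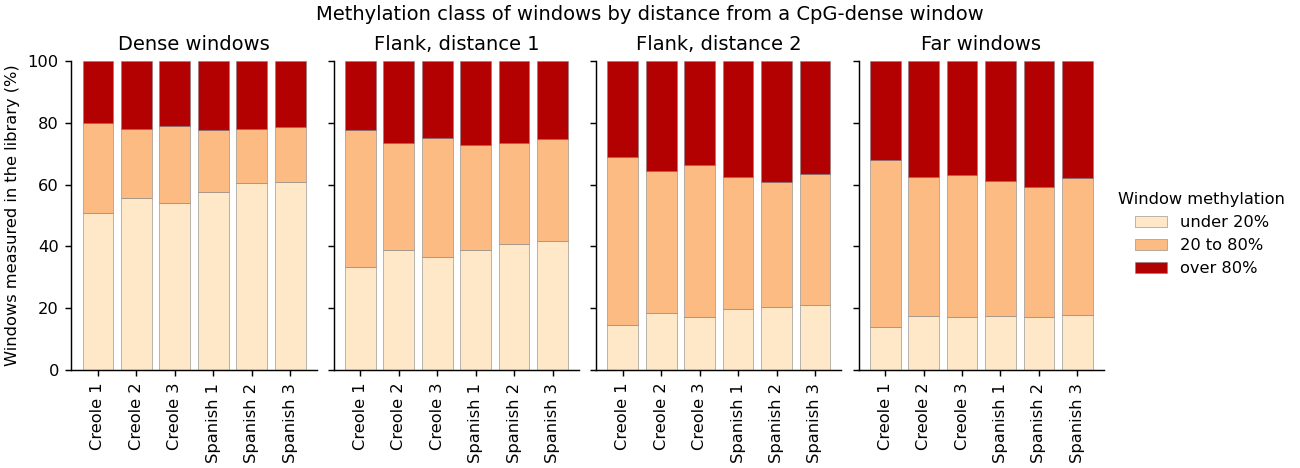
Share of measured windows (%, y axis) reading under 20%, 20 to 80% and over 80% methylation, as stacked bars for each of the 6 libraries (x axis), for dense windows, flanking windows at distance 1 and 2, and far windows. Windows under 20% take up 50.8 to 60.7% of dense windows, 33.4 to 41.7% at distance 1 and 14.4 to 21.1% at distance 2.

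Set against the dense windows beside them in the same library, flanking windows were more methylated in all 6 libraries. The mean difference, flank minus dense, at distance 1 was 5.23, 3.71 and 4.03 percentage points in Creole 1, 2 and 3, and 4.98, 6.08 and 5.68 points in Spanish 1, 2 and 3, over 1864 to 4084 pairs per library. Its mean was 4.95 ± 0.925 points (SD, n = 6; exact two-sided sign-flip permutation test p = 0.03125, the smallest that 6 libraries can give; Benjamini-Hochberg adjusted p = 0.03125 over 7 comparisons). At distance 2 the difference was 8.36, 6.35 and 4.25 points in Creole 1, 2 and 3, and 7.84, 9.88 and 8.21 points in Spanish 1, 2 and 3. Its mean was 7.48 ± 1.94 points (SD, n = 6; the same exact test and p). Such pairs hold only dense windows with a measured flank, and these read 36.5 to 42.0% beside distance 1 and 51.0 to 57.1% beside distance 2, above the level of all dense windows. Where a window at distance 1 and one at distance 2 lay next to each other beside the same dense window, the farther one was higher by 1.90 ± 0.978 points (SD, n = 6; adjusted p = 0.03125 by the same exact test). That last step was 0.368 points (p = 0.46875, exact test) over cytosines covered in every measured library, and -0.181 points without Creole 1, where 2021 windows at distance 1 remained. Creole 1 itself had a step of 1.73 points, within the range of the other libraries (0.596 to 3.15 points).

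The step was set out by the level of the dense window. To keep the same reads from both sorting and measuring, each dense window was sorted by its level in the other 5 libraries. The dense level is 1 side of the difference, and dense windows picked at an extreme leave their neighbours room in 1 direction, so the signs follow in part from the sorting. The differences are given as a description, with no test of their sign. Beside dense windows under 20%, flanking windows at distance 1 read 15.3 to 21.8% on average, where the dense windows read 2.48 to 9.25%. The within-library difference was 12.3 ± 0.808 points at distance 1 and 31.8 ± 2.31 points at distance 2 (SD, n = 6 each), positive in 6 of 6 libraries. At distance 2 those flanks read 36.9 to 42.7%, below the level of the far windows. Beside dense windows over 80%, the flanks read 76.8 to 80.7% at distance 1 and 73.0 to 77.3% at distance 2. The difference there was -6.13 ± 0.847 points at distance 1 and -8.85 ± 1.12 points at distance 2 (SD, n = 6 each), negative in 6 of 6 libraries. Beside dense windows of 20 to 80% it was 1.89 ± 1.35 points at distance 1 (positive in 6 of 6 libraries) and 3.05 ± 1.96 points at distance 2 (positive in 5 of 6; SD, n = 6 each).

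**Figure D2:**
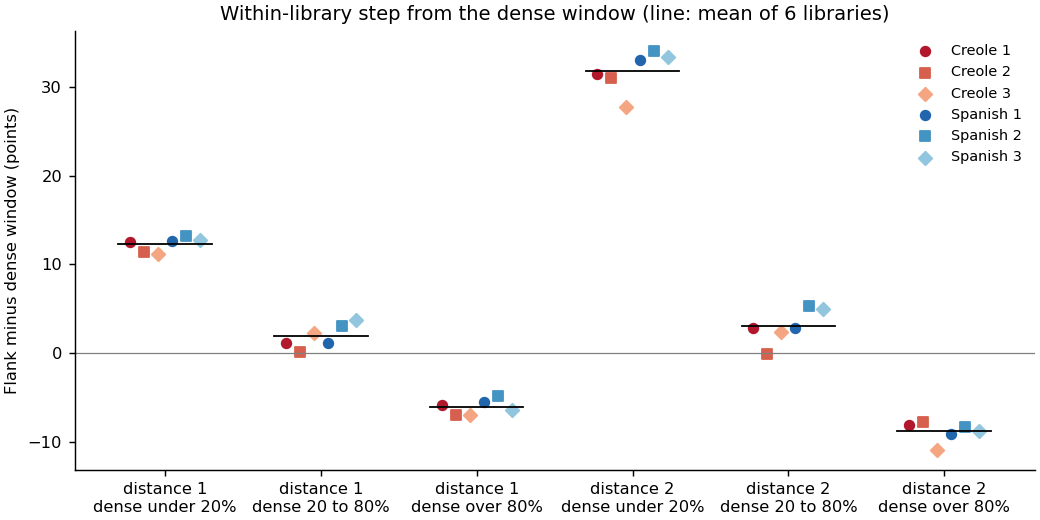
Mean flank minus dense difference in window methylation (percentage points, y axis) in each of the 6 libraries, by distance and by the level of the dense window in the other 5 libraries (x axis); lines mark the mean of the 6. Beside dense windows under 20% all values lie between 11.2 and 13.2 points at distance 1 and between 27.7 and 34.1 points at distance 2, and beside dense windows over 80% all lie below 0.

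Most flanks of an unmethylated dense window were themselves unmethylated. With the dense window read in the same library, 67.0 to 74.7% of windows at distance 1 beside a dense window under 20% also read under 20%, and their median was 0.0 to 5.73%. At distance 2 that share was 35.4 to 48.6% and the median 21.1 to 44.3%. A minority of flanks at distance 1, 4.40 to 7.26%, read over 80%. Beside dense windows over 80%, the median at distance 1 was 80 to 83.3%, and 0.967 to 6.82% of windows read under 20%.

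By distance in bases, the level rose gradually over the first 1000 bp beside unmethylated dense windows. Cytosines in the last 100 bp inside such a window averaged 2.18 to 4.75% over the 6 libraries, those in the first 100 bp outside 5.33 to 8.57%, those 400 to 499 bp away 17.8 to 26.1% and those 900 to 999 bp away 27.7 to 37.1%. Bins from 1000 bp on hold cytosines of windows at distance 2, a different set of windows, so they do not continue the same places. Cytosines there averaged 20.85 to 34.0% at 1000 to 1099 bp, 29.5 to 53.3% at 1400 to 1499 bp and 37.1 to 40.6% at 1900 to 1999 bp. No 100 bp bin outside, out to 1999 bp, reached the far level of 62.6% in any library. Beside dense windows over 80% the level dropped at once, to 77.5 to 82.6% in the first 100 bp against 86.7 to 91.6% in the last 100 bp inside, and then moved between 62.7 and 84.3% with no steady course. The dense windows were chosen here by their level in the same library, so the levels inside follow from the choice, while those outside do not.

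**Figure D3:**
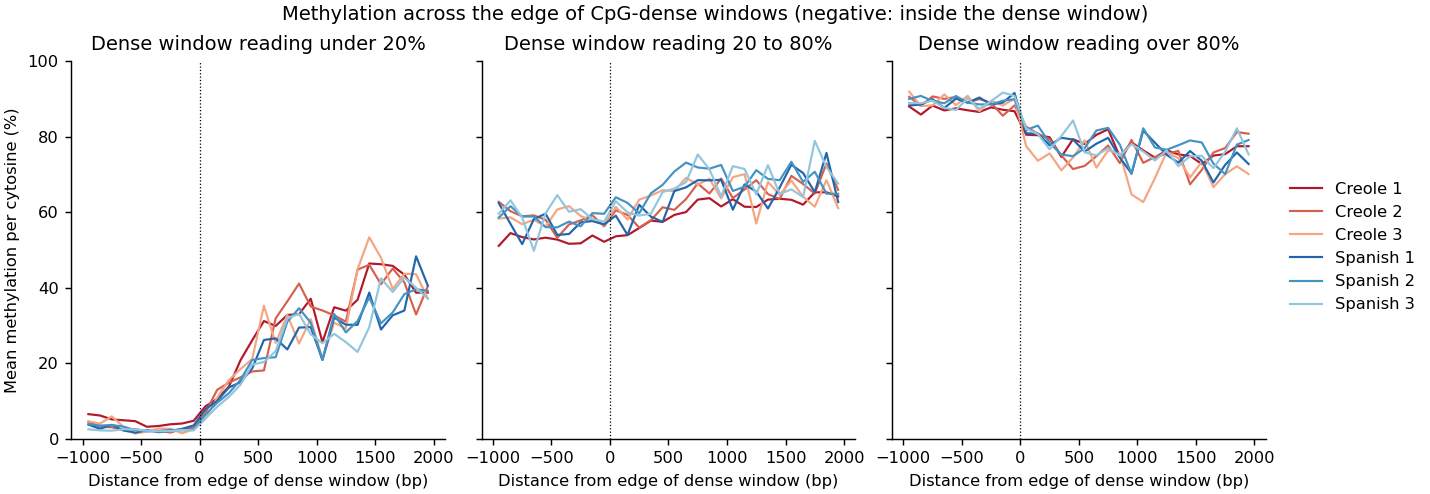
Mean methylation per cytosine (%, y axis) in bins of 100 bp by distance from the edge of the dense window (bp, x axis; negative values lie inside it), 1 line for each of the 6 libraries, with a panel for dense windows under 20%, of 20 to 80% and over 80%. In the first panel the level climbs to 27.7 to 37.1% at 900 to 999 bp, and in the third it stays between 62.7 and 84.3% outside.

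Flanking windows at distance 1 stood apart from far windows of the same density. Within bins of 10 cytosines of density, weighted by the flanking windows, the difference flank minus far was -12.0, -13.1 and -12.3 points in Creole 1, 2 and 3, and -13.8, -14.9 and -14.9 points in Spanish 1, 2 and 3. The mean was -13.5 ± 1.23 points (SD, n = 6; adjusted p = 0.03125, exact sign-flip permutation test over the same 7 comparisons), against -17.9 ± 1.69 points with density ignored (SD, n = 6). At distance 2 the matched difference was 1.55 ± 0.629 points and the unmatched one -2.12 ± 1.03 points (SD, n = 6; each adjusted p = 0.03125, exact test), so its sign turned with the matching. The shapes differed too. Far windows read 65.7 to 70.3% with under 10 cytosines, 60.6 to 61.5% with 30 to 39 and 46.4 to 48.5% with 50 to 59, lower with density. Windows at distance 1 stayed between 41.5 and 50.4% in every bin, and windows at distance 2 between 57.0 and 65.5%.

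**Figure D4:**
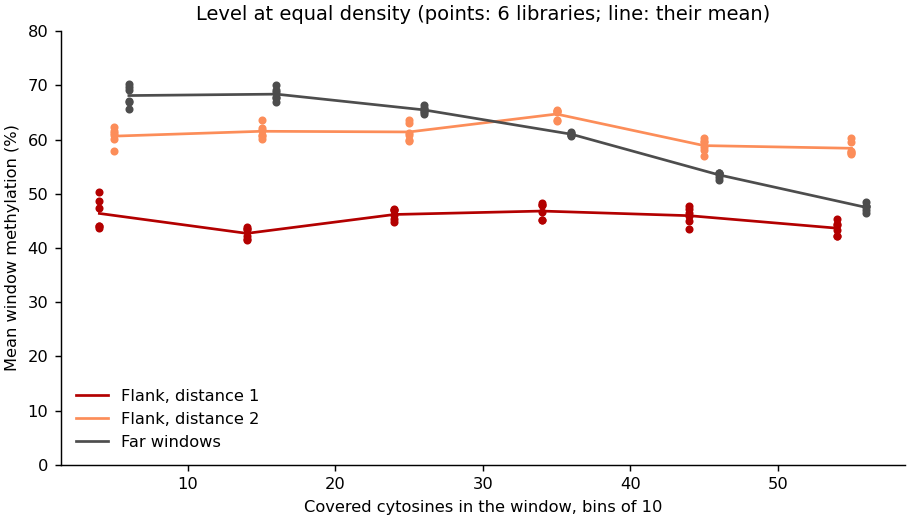
Mean window methylation (%, y axis) by the number of covered cytosines in the window (bins of 10, x axis) for flanking windows at distance 1 and 2 and far windows; points are the 6 libraries and lines their mean. Distance 1 lies between 41.5 and 50.4% in every bin while far windows fall to 46.4 to 48.5% in the densest bin.

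With both distances pooled, flanking windows just under the cut at 60 cytosines had a library range apart from that of dense windows just above it. Flanking windows of density 55 to 59 (498 windows) averaged 46.6 to 50.2%, and dense windows of 60 to 64 (1567 windows) 42.8 to 45.8%. The distances differed, since windows of density 50 to 59 read 42.2 to 45.4% at distance 1 (788 windows) and 57.4 to 60.2% at distance 2 (282 windows). The range at distance 1 thus overlapped that of the dense windows. By side, the level at distance 1 was 43.3 to 46.7% with the dense window on the lower-coordinate side (2071 windows) and 42.8 to 46.1% with it on the higher-coordinate side (2053 windows). The 174 windows with a dense window on both sides averaged 51.3 to 55.4%, above either. At distance 2 the level was 59.8 to 62.9% with the dense window on the lower-coordinate side (901 windows) and 59.7 to 61.0% with it on the higher-coordinate side (917 windows). It was higher on the lower-coordinate side in all 6 libraries there, a difference that was not tested. Between chromosomes the level at distance 1 ran from 25.2% on chromosome 10 and 27.8% on chromosome 13 to 53.7% on chromosome 25 and 55.1% on chromosome 17. On chromosome 10 the libraries read 23.7 to 29.6% and on chromosome 17 they read 53.6 to 56.4%. Dense windows of chromosomes 10 and 13 were also low, at 17.6% and 21.2%, and far windows there were at 58.0% and 64.1%.

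A window of intermediate level was seldom made of intermediate cytosines. In windows at distance 1 that read 20 to 80%, only 9.82 to 28.6% of the cytosines read 20 to 80% themselves, the highest share being that of Creole 1. Only cytosines with 10 or more calls entered here. Of the windows with 3 or more such cytosines, 83.3 to 94.6% held both a cytosine under 20% and one over 80%. Positions at the ends of covered stretches, where library preparation may have filled in cytosines, made up 3.79 to 4.61% of the calls at distance 1 and read 5.57 to 10.4%. With such positions removed the share of windows holding both was 76.2 to 87.1%, against 63.6 to 84.1% in far windows, and these ranges overlap. The number of molecules behind a cytosine is not known, because reads amplified by PCR carried no molecular identifier, and its part in this pattern was not tested.

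Single windows varied widely between animals. Over the 1204 windows measured in all 6 libraries at distance 1, Pearson's r between libraries, given across windows as a description, was 0.832 to 0.860 within Creole, 0.842 to 0.879 within Spanish and 0.818 to 0.890 between the groups. At distance 2 (576 windows) it was 0.734 to 0.797, 0.810 to 0.840 and 0.692 to 0.846. The range over the 6 libraries had a median of 23.4 points at distance 1 and 25 points at distance 2. In dense windows it was 17.4 points and in far windows 26.7 points. At distance 1, 227 windows (18.9%) read under 20% in all 6, 176 (14.6%) read 20 to 80% in all 6 and 59 (4.90%) over 80% in all 6, while 742 (61.6%) changed class between libraries. In 185 windows (15.4%) the range passed 50 points. In the 507 windows that could be read over cytosines covered in every measured library, that share was 7.89%. Over all covered cytosines the range passed 50 points in 12.7% of dense and 18.5% of far windows. Such spread was thus not particular to flanking windows.

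A few deeply read places are given as single examples. At 76 places a dense window and both flanking windows on one side were measured in all 6 libraries. The 4 given here were those whose dense window had the most calls in its shallowest library, while their flanks had as few as 21 calls. All 4 dense windows were methylated, at 60.0 to 85.7%. On chromosome 10 the dense window (59509001 to 59510000) averaged 74.5% ± 9.68 in the Creole and 73.4% ± 3.58 in the Spanish animals (SD, n = 3 each). The window next to it at distance 1 (59510001 to 59511000) read 76.2%, 76.2% and 74.7% in Creole 1, 2 and 3, and 84.3%, 85.8% and 90.9% in Spanish 1, 2 and 3, from 21 to 689 calls. The groups did not overlap there, with a difference of -11.3 points. At distance 2 (59511001 to 59512000) Creole animals averaged 66.9% ± 4.20 and Spanish animals 67.6% ± 2.21 (SD, n = 3 each). On chromosome 3 a dense window of 60.0 to 74.3% (1046001 to 1047000) had a flank (1045001 to 1046000) that read 37.2%, 46.0% and 3.38% in Creole 1, 2 and 3, and 12.2%, 55.1% and 47.5% in Spanish 1, 2 and 3, from 148 to 1030 calls. One animal of each group read far below the others at this flank, and the next window out (1044001 to 1045000) read 57.8 to 78.2% again. On chromosomes 19 (57350001 to 57351000) and 4 (98756001 to 98757000) the windows at distance 1 read 72.9 to 89.0% and 61.6 to 80.6%. Their dense windows read 74.97 to 85.7% and 65.9 to 84.1%. Within a library the values could lie apart, as in Spanish 1 on chromosome 4, with 61.6% in the flank and 84.1% in the dense window. The windows at distance 2 spread from 42.2 to 74.3% and from 34.0 to 83.0%.

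No difference between Creole and Spanish animals in the mean level of flanking windows passed a test, which 3 libraries against 3 cannot reach at a threshold of 0.05. Over the 1204 windows at distance 1 measured in all 6 libraries, the level was 51.9%, 50.3% and 50.2% in Creole 1, 2 and 3, and 49.9%, 50.1% and 49.8% in Spanish 1, 2 and 3. All Creole values lay above all Spanish ones, the closest of them by a small margin, with averages of 50.8% ± 0.956 for Creole and 49.9% ± 0.126 for Spanish libraries (SD, n = 3 each). The difference of 0.877 points had p = 0.1, the smallest this exact two-sided permutation test can give, and an adjusted p of 0.4 over 4 comparisons. It was 0.295 points without Creole 1 and 0.559 points without Spanish 3, and 1.495 and 1.53 points without Creole 2 and Creole 3. Over cytosines covered in every measured library it was -0.743 points, the opposite sign. At distance 2, Creole libraries averaged 62.3% ± 1.38 and Spanish libraries 62.5% ± 0.807 (SD, n = 3 each; difference -0.252 points, exact permutation p = 0.7). Dense windows measured in all 6 averaged 36.0% ± 0.960 over the Creole and 33.8% ± 0.752 over the Spanish libraries (SD, n = 3 each; exact permutation p = 0.1).

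The step from dense window to flank had a lower mean in Creole libraries, a difference that passed no test. At distance 1 it was 4.32 ± 0.802 points in the Creole and 5.58 ± 0.557 points in the Spanish libraries (SD, n = 3 each; exact permutation p = 0.2, adjusted p = 0.4), and the difference of -1.26 points was -0.565 points without Creole 2. At distance 2 it was 6.32 ± 2.05 points in the Creole and 8.64 ± 1.08 points in the Spanish libraries (SD, n = 3 each; exact permutation p = 0.3, adjusted p = 0.4). That difference of -2.32 points was -0.0838 points over cytosines covered in every measured library and -1.06 points without Creole 3. Beside dense windows under 20%, the step at distance 2 was 31.5, 31.1 and 27.7 points in Creole 1, 2 and 3, and 33.1, 34.1 and 33.4 points in Spanish 1, 2 and 3. These groups did not overlap, and neither did those at distance 1, where Creole libraries averaged 11.7 ± 0.739 points and Spanish libraries 12.8 ± 0.293 points (SD, n = 3 each). Each library's dense windows were sorted by the other libraries, which held fewer of its own group than of the other group. The sorting thus differed between the groups. Dense windows measured in all 6 libraries also differed in level, at 36.0% in Creole and 33.8% in Spanish libraries. Both steps had an exact permutation p of 0.1 and an adjusted p of 0.2 over 6 comparisons. This test cannot tell a group difference from an effect of the sorting, and no conclusion is drawn from it.

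Window by window, edgeR's quasi-likelihood test and limma called no flanking window between the groups, while edgeR's likelihood ratio test called some. edgeR's quasi-likelihood test on methylated and unmethylated counts, fitted over all 58509 windows with Benjamini-Hochberg adjustment, called 0 of the 4298 windows at distance 1 and 0 of the 1907 at distance 2, where 0.0% of all windows were called. limma also called 0. On simulated counts with the depths of these libraries, the quasi-likelihood test called almost none of the windows given a known difference, so its count of 0 does not show that windows were alike. At an unadjusted p under 0.05, edgeR's test marked 166 windows (3.86%) at distance 1 and 74 (3.88%) at distance 2, close to the 3.81% of all windows. limma marked 245 (5.70%) and 108 (5.66%), against 5.32% of all windows. edgeR's likelihood ratio test, which gives less weight to the uncertainty of the spread between animals, called 94 (2.19%) and 46 (2.41%) at an adjusted p under 0.05, against 2.06% of all windows. The median size of the difference was 6.11 points at distance 1 and 7.29 points at distance 2, and 418 (9.73%) and 208 (10.9%) differed by over 25 points, against 9.89% of all windows. Among windows measured in all 6 libraries these shares were 4.73% and 6.60%, against 6.31%.

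Direction was uneven at distance 1, but not under every setting. Of the windows marked at an unadjusted p, 124 (2.89%) were higher in Creole and 42 (0.977%) lower, against 2.13% and 1.68% of all windows. Dense windows were more uneven, with 444 (5.38%) higher in Creole and 39 (0.472%) lower. Over cytosines covered in every measured library the numbers were 31 higher and 40 lower, and without Creole 1 they were 59 and 52. At distance 2, 43 (2.25%) were higher in Creole and 31 (1.63%) lower. Among windows measured in all 6 libraries, the groups did not overlap in 77 (6.40%) at distance 1 that were higher in Creole, where 5.6% of all such windows were, and in 69 (5.73%) that were lower, against 5.92%. At distance 2 these were 32 (5.56%) higher and 49 (8.51%) lower. With group means also 25 points or more apart, 23 windows (1.91%) at distance 1 were higher in Creole and 6 (0.498%) lower. Over all windows measured in all 6 libraries these shares were 1.67% and 1.17%. At distance 2, 7 (1.22%) were higher and 9 (1.56%) lower.

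The 20 flanking windows of smallest unadjusted p were chosen by that p, 6 in each direction at distance 1 and 4 in each direction at distance 2, and their differences are given as a description. The adjusted p was 1.0 for all 20 (edgeR quasi-likelihood test), all 20 had groups without overlap, and 8 were measured in all 6 libraries. Only the window on chromosome 5 at 26724001 touched a region of the authors' deposited table, which lists that region (26724287 to 26724384) in the core of a CpG island, at 74% in Creole and 11% in Spanish animals, under an Ensembl identifier. Of 108 library values in these windows, 24 were 0% and 13 were 100%. A count of 0 allows 0.336 to 16.7% depending on the calls, 3 calls being taken as the limit, and this covers counting error only.

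Windows at distance 1 that were higher in Creole had low Spanish values, in most of them 0. On chromosome 5 (26724001 to 26725000, density 59) the window read 57.0%, 56.2% and 52.9% in Creole 1, 2 and 3, and 2.96%, 7.82% and 9.26% in Spanish 1, 2 and 3, from 121 to 1541 calls. The dense window beside it did not show such a gap, averaging 27.3% over the Creole and 17.7% over the Spanish libraries. At the 17 cytosines that every library covered, the difference of 48.7 points became -2.55 points, whereas at the 49 cytosines covered in at least 1 library of each group it was 49.4 points. The gap thus lay at cytosines that some of the libraries did not cover. On chromosome 4 (92326001 to 92327000) the libraries read 32.1%, 19.1% and 30.9% in Creole 1, 2 and 3, and 0.0% in all 3 Spanish libraries, which had 72 to 624 calls. Its dense window read 44.8% in Creole 1, 0.0% in Creole 2, 33.2% in Creole 3 and 0.0% in Spanish 1 and 2. At the 26 cytosines covered in both groups the difference of 27.4 points was 15.4, with Creole 1 at 6.06%. On chromosome 3 (81354001 to 81355000) the Creole libraries read 20.0%, 20.0% and 19.8% and the Spanish libraries 0.0%, from 25 to 149 calls, and only 5 of its 37 cytosines were covered in both groups. On chromosome 7 (45309001 to 45310000) they read 20.5%, 17.7% and 10.0% in Creole 1, 2 and 3, and 0.0% in all Spanish libraries. Creole 3 had 10 calls there (95% Wilson interval 1.79 to 40.4%), and at cytosines covered in both groups the difference of 16.1 points was 6.70.

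On chromosome 18 (32953001 to 32954000), with Spanish 3 not measured, the window read 34.3%, 29.7% and 48.1% in Creole 1, 2 and 3, and 0.0590% and 0.0% in Spanish 1 and 2, the smallest p of all flanking windows (0.000623 unadjusted, edgeR quasi-likelihood test). Its dense window, measured in 4 libraries, read 58.8% in Creole 1 and 11.6% in Creole 3, the reverse of their order in the flank, and 0.0% and 0.0881% in Spanish 1 and 2. On chromosome 16 (47766001 to 47767000) Creole libraries averaged 17.9% ± 4.59 (SD, n = 3) and both measured Spanish libraries read 0.0%.

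Windows at distance 1 that were lower in Creole mostly had Spanish libraries at or near 100%. On chromosome 26 (17971001 to 17972000) the window read 79.7%, 78.0% and 71.4% in Creole 1, 2 and 3, and 98.9%, 96.3% and 96.4% in Spanish 1, 2 and 3, from 28 to 3590 calls. At the 4 cytosines that every library covered, the difference of -20.8 points was -14.7. The other windows in this direction had 2 measured Spanish libraries each. A second window on chromosome 26 (49783001 to 49784000) averaged 73.8% ± 1.57 (SD, n = 3) in Creole and 100% in both Spanish libraries, while its dense window averaged 0.109% and 4.17%. The windows on chromosomes 3 (120914001 to 120915000), 13 (17760001 to 17761000) and 29 (49254001 to 49255000) lay at 70.0 to 91.7% in the Creole and at 99.6 to 100% in the Spanish libraries. The window on chromosome 3 differed by -15.3 points, but by 0.0 points at the 5 cytosines covered in every measured library, where 3 libraries had enough calls. In the window on chromosome 13 no cytosine was covered in both groups, so its groups were never compared at the same base. On chromosome 7 (63064001 to 63065000) the window was near 0 throughout, at 0.0111% ± 0.0193 (SD, n = 3) in Creole libraries and 3.18% and 3.01% in Spanish 2 and 3.

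At distance 2 the windows measured in all 6 libraries lay on chromosomes 8, 14 and 5. On chromosome 8 (8399001 to 8400000) the window read 19.7%, 33.3% and 15.4% in Creole 1, 2 and 3, and 0.0% in the Spanish libraries. On chromosome 14 (65585001 to 65586000) the same groups read 4.62%, 9.11% and 9.09%, and 0.0%. On chromosome 5 (57559001 to 57560000) they read 60.5%, 87.5% and 66.7% in Creole 1, 2 and 3, and 100% in the Spanish libraries, from 19 to 382 calls. The largest gap was on chromosome 19 (63582001 to 63583000), with 59.7%, 59.8% and 40.0% in Creole 1, 2 and 3, and 0.0% and 0.478% in Spanish 1 and 2, and it was 47.2 points at the 5 cytosines that all measured libraries covered. A window on chromosome 18 (54171001 to 54172000), 7 cytosines in all, went the other way, with 0.645% and 0.0% in Creole 1 and 2, and 28.6%, 52.4% and 30.8% in Spanish 1, 2 and 3. The windows on chromosomes 16 (21288001 to 21289000), 22 (15347001 to 15348000) and 1 (13550001 to 13551000) differed by 25.9, -16.5 and -18.4 points. Of all 20 windows, 19 had a value at cytosines covered in at least 1 library of each group, all 19 with the same sign. The size shrank strongly in 2 of them. Libraries could still be read at different cytosines there, so no conclusion is drawn from the shared sign. The window on chromosome 5 at 26724001 kept 49.4 points there, but had -2.55 points at cytosines that every library covered. The window on chromosome 7 at 63064001 rested on 1 library of each group.

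**Figure D5:**
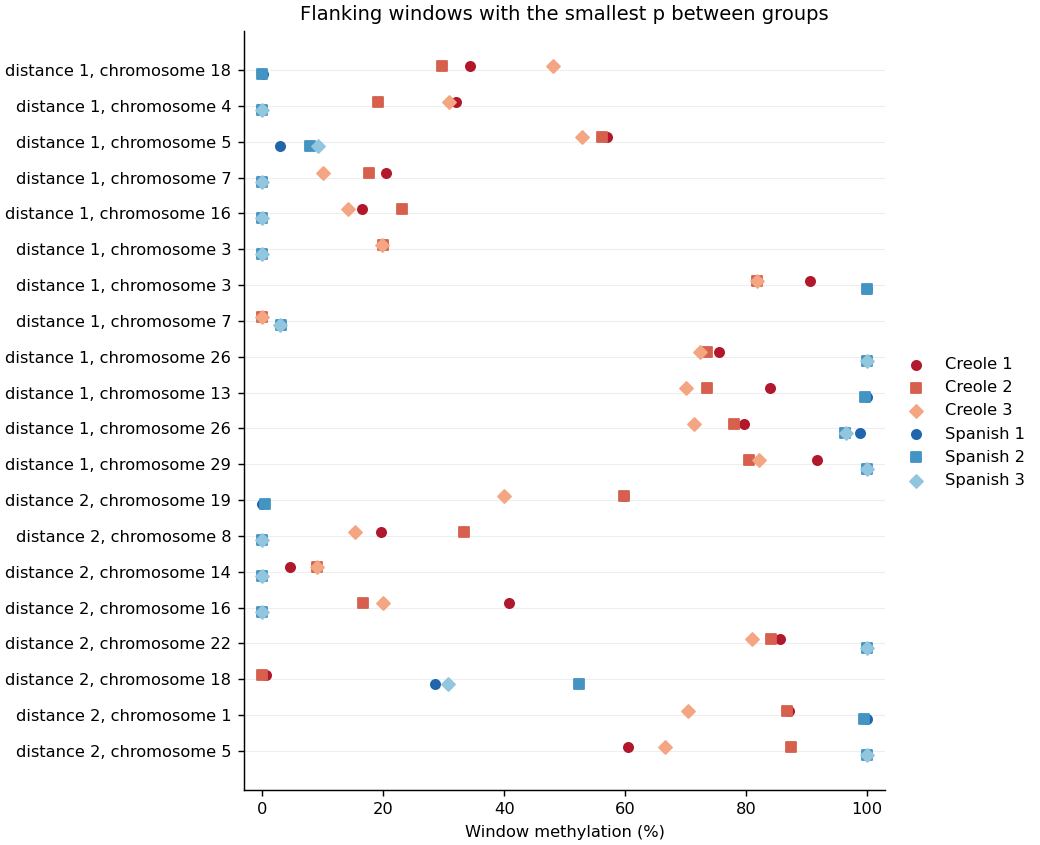
Window methylation (%, x axis) of each library in the 20 flanking windows of smallest unadjusted p (y axis: distance and chromosome, higher in Creole above lower in Creole within each distance); Creole libraries are red and Spanish libraries blue. The windows were chosen for this separation, and Spanish values lie at or near 0 or 100% in most of them.

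Some regions that the authors listed as differing fell on flanking windows. Of 316 autosomal regions in the authors' deposited table, 215 touched a window that met the minimum. Among these 215, 23 (10.7%) touched a window at distance 1 and 11 (5.12%) one at distance 2, while these windows were 7.35% and 3.26% of those meeting the minimum. Dense windows, 14.1% of those meeting it, were touched by 88 (40.9%). A region can touch several windows, and these shares were not tested. For the 34 regions on flanking windows, the authors' deposited table gave a higher mean in Creole for 25 and a lower one for 9. It placed 10 of the 34 in the core of a CpG island, 2 on a shore, 1 over a shelf and 21 by no island. Whole windows moved less than the means listed for the regions. The median listed size was 59.5 points in the authors' deposited table, and the median difference of the windows was 25 points. The window had the listed sign in 31 of 34 cases and no overlap between groups in the listed direction in 15, which is no independent evidence, since the regions were called on these libraries.

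Among named regions with the largest listed difference, the flanking windows split into those that followed and those that did not. LTBP3, which binds latent TGF-beta, had a region over an intron-exon boundary (chromosome 29, 44390852 to 44390925) at 13% in Creole and 91% in Spanish animals in the authors' deposited table. In the deposited counts only Creole 1 of the Creole libraries had calls in that region, 139 of them. The window at distance 1 (44390001 to 44391000) read 40.8%, 75% and 68.4% in Creole 1, 2 and 3, and 94.7% and 87.6% in Spanish 1 and 2, without overlap. At H2AV_BOVIN, a promoter region in the authors' deposited table (chromosome 4, 77388478 to 77388587), the window read 33.5% and 25.1% in Creole 1 and 2, and 0.0% and 0.362% in Spanish 1 and 2. A single Creole library also held all Creole calls in each listed region of FCF1_BOVIN, E1BB01_BOVIN, CCDC61, F1MF18_BOVIN and E1B9S4_BOVIN. At FCF1_BOVIN (86292001 to 86293000 on chromosome 10) the window read 42.6% and 35.8% in Creole 1 and 2, and 7.84% and 0.0979% in Spanish 2 and 3. At F1N287_BOVIN (window 24219001 to 24220000 on chromosome 3, distance 2) it read 6.05% and 31.4% in Creole 1 and 2, and 0.0% in Spanish 2 and 3. At F19A5_BOVIN (window 119524001 to 119525000 on chromosome 5, distance 2) the 80 points of the authors' deposited table stood against 15.8 points over the window, 91.6% ± 0.0832 for Creole and 75.9% ± 10.9 for Spanish libraries (SD, n = 3 each). Within that listed region only Creole 2 (384 calls) and Spanish 2 (240 calls) had more than 8 calls.

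At the other named regions the groups overlapped. Near E1BJ47_BOVIN (window 116274001 to 116275000 on chromosome 3) the window read 24.6%, 100% and 100% in Creole 1, 2 and 3, and 14.5% and 25.2% in Spanish 2 and 3. At CCDC61, a centriole protein gene, the window (53941001 to 53942000 on chromosome 18) read 8.27% in Creole 1 and 91.5% in Creole 2, and 9.56%, 32.1% and 14.3% in Spanish 1, 2 and 3. Windows at F1MF18_BOVIN, E1B9S4_BOVIN and E1BB01_BOVIN also had a library of one group within the range of the other. In HOXD11, a homeobox gene of limb patterning that was chosen after its values were seen, the window (20840001 to 20841000 on chromosome 2) read 67.6% in Creole 1 and 0.0% in Creole 2 and 3, and 0.0% and 1.17% in Spanish 1 and 2. The high value there is that of 1 animal, and among the Creole libraries only Creole 1 had calls in the listed region (319). No window in these genes passed the threshold of edgeR's quasi-likelihood test, where each adjusted p was 1.0.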

How the data were processed

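Per the labels' protocols, MspI fragments of blood DNA had their ends filled in, were size selected on a gel, treated with bisulfite and then enriched by PCR. The submitters' processing notes name Trim Galore, Bismark, methylKit and UMD3.1. Which of them did what, their versions, the treatment of duplicates and the region caller are not given in the sources at hand. The deposited files hold counts of methylated and unmethylated calls for each covered cytosine, not normalized, and a deposited percent that equals their ratio in every line. The authors' deposited table gives group means as fractions, printed here as percent, and, as a signed score, their difference, whose sign was turned here to Creole minus Spanish. An area statistic, also a score deposited by the authors, was not used.

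Groups follow the breed labels, and replicate numbers pair no animals. Window methylation was methylated over all calls. The window test was the quasi-likelihood F test of edgeR 4.0.16 in R 4.3.3, with library terms, no dispersion trend and a Benjamini-Hochberg threshold of 0.05, a library under the minimum entering with no counts, and beside it limma 3.58.1 on log2 of methylated plus 2 over unmethylated plus 2. The edgeR test was tested on simulated counts. Levels and steps used exact permutation tests over libraries. Wilson intervals (95%) treat calls as independent, which PCR reads are not, so they and the limits at 0 cover counting error only. Python 3.11.15, numpy 2.4.6, pandas 2.3.3, scipy 1.17.1 and matplotlib 3.10.9 were used.

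The windows, lists and tests were chosen with earlier results of these data known. Steps by the level of the dense window in other libraries, density matching, the removal of filled-in positions from intermediate windows and the island length limit were added after the data were seen. Named were the 6 windows (distance 1) and 4 windows (distance 2) of smallest p in each direction, the 4 deepest places, and the 10 gene-named regions with the largest listed difference on flanking windows. Possible filled-in positions were taken as the inner base of the outermost CpG at either end of a covered stretch, where both strands of it were covered, a stretch ending at a gap of over 100 bp. Only names were taken from a RefSeq list of another assembly, ARS-UCD2.0, where LTBP3 and CCDC61 were found on the same chromosome. Alternatives covered the call minimum, the density cut, the cytosines used, the grid, depth, the test and each library left out.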

Additional observations from a re-analysis of the deposited data

How the results depend on the processing

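The differences from dense windows at both distances, and that of distance 1 from far windows at the same density, kept their direction under every alternative run. They ranged from 2.26 to 5.98, from 2.02 to 10.9 and from -17.9 to -10.4 points where no library was left out. With 1 library left out they were 3.67 to 4.87, 4.60 to 7.67 and -13.1 to -10.5 points, where 5 libraries cannot give an exact p below 0.0625. Other results moved more, and the cause was not tested. The step between distance 1 and distance 2 was 0.368 points over cytosines covered in every measured library, 0.902 points with very deep windows kept, and -0.181 to 2.05 points with 1 library left out. Distance 2 minus far windows of the same density was -0.765 points with the density cut at 80, and 1.44 to 3.11 points with 1 library left out. Creole minus Spanish at distance 1 was -0.743 points over cytosines covered in every measured library, and 0.295 to 1.53 points with 1 library left out. At distance 2 it was 2.65 points with the density cut at 80, 0.0146 points with each cytosine weighted equally, 0.593 points over each library's own windows, and -1.05 to 0.840 points with 1 library left out. Windows called by edgeR's likelihood ratio test were 94, 46 and 1206 at distance 1, at distance 2 and in all, against 0 by the quasi-likelihood test under every other setting, whose smallest adjusted p was 0.555, without Creole 1. All 20 named windows, picked by p, had groups without overlap, so leaving out a library cannot turn their sign. Only 4 of them could be read over cytosines covered in every measured library, and of these 1 reversed (-2.55 points, chromosome 5, 26724001). Depth limits shallow windows, where 10 calls suffice. No paired analysis was possible because the replicate numbers follow accession order and pair no animals.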
